A study of Mus musculus with 10 samples.

Results

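Type I interferon response genes are the 36 genes described here, antiviral genes whose transcription rises when a cell receives type I interferon. They were chosen by name, without the guanylate-binding proteins and the immunity-related GTPases, by matching the Ensembl identifiers of the deposited count table to gene symbols. All 36 were found among the 48526 rows of the table, and all 36 passed the low-count filter that left 13334 genes for testing. By role they were 3 transcription factors, 11 sensors of foreign nucleic acid (5 of them oligoadenylate synthetases, OAS, and their relatives) and 22 effectors.

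The libraries were made from RNA of cells labelled as mouse aortic endothelial cells, sorted by flow cytometry, and 5 were labelled non-stressed and 5 acute mental stress. The stressed animals had been put under stress for 3 h on each of 3 consecutive days before the aortae were taken. Both groups carry the strain name ApoE, and the sources used here give no further genotype, age or sex of the animals and no stress procedure. The markers of the sort, and whether a library holds 1 animal or pooled animals, are not known here, so the error behind each p-value is that between these libraries and may be technical. Total counts ran from 24373063 to 38237346 in the non-stressed and from 18020220 to 30168890 in the stressed libraries.

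In this pathway, type I interferons bind a receptor made of IFNAR1 and IFNAR2, the kinases JAK1 and TYK2 signal onward, and the complex ISGF3, which holds STAT2 and IRF9, forms and enters the nucleus. ISGF3 binds interferon-stimulated response elements in promoters and drives genes whose products sense viral nucleic acid, block translation and viral assembly, or adjust the response itself. Monocytes and macrophages, endothelial cells and most other cells answer to type I interferon, and plasmacytoid dendritic cells are known as a strong source of it.

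The label of the libraries was set against marker genes. Of 10 endothelial markers, Cldn5, Emcn and Tek had 0 reads in every library, Cdh5, which encodes VE-cadherin, had 115 reads in all, and 6 lay under 1 CPM in every library (CPM, counts of a gene per 1000000 counts of its library). The summed level of the 10 markers, most of it Vwf, was 21.6 to 47.6 CPM in non-stressed and 20.8 to 47.8 CPM in stressed libraries. Which cells the Vwf reads came from was not tested. For 8 monocyte and macrophage markers the sum was 20739 to 33033 CPM in non-stressed and 25656 to 32706 CPM in stressed libraries. The interferon genes below are therefore those of libraries labelled endothelial that held few endothelial transcripts. In such mixed RNA, fewer cells of a type and less RNA per cell cannot be told apart. Summed markers were 3923 to 7394 and 4421 to 6083 CPM for non-classical monocytes, 205 to 387 and 161 to 301 CPM for conventional dendritic cells, 810 to 2575 and 1093 to 2362 CPM for neutrophils, 22.2 to 126 and 21.1 to 94.5 CPM for T and NK cells, 466 to 859 and 326 to 597 CPM for B cells, 1330 to 2776 and 1171 to 5554 CPM for erythroid cells, and 96.1 to 285 and 144 to 296 CPM for platelets, non-stressed first in each pair. Of the listed markers 0 were called, and the groups overlapped in each of these sums.

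Promoter sequences show what several members share at their start sites. The genes were chosen by name and not by sequence. They were chosen as interferon-induced genes, however, which ISGF3 drives through response elements, so the matches below are no independent trait. Of the 36 genes, 27 matched a promoter window of RefSeq on build GRCm38.p6, from 250 bases before to 50 bases after the start of transcription. These genes had 32 windows. In 27 of the 32, the bases after the start lay on a transcript of the gene in the same orientation. The core of the interferon-stimulated response element, GAAANNGAAA on either strand, was found in the windows of 14 of these 27 genes (51.9%), against 1079 of 27025 genes in the table (3.99%). The following stretches are printed, 5′ to 3′ on the strand of the gene and with the matches in capitals, because their genes have an upstream match and values in every library below. Of the 7 such genes the first 6 by role are shown. Bst2, with 2 overlapping matches of which the first begins 130 bases before the start, is not shown. Where the capitals begin with T, the element reads on the other strand.
Stat2 (chr10:128270251-128270310, plus strand): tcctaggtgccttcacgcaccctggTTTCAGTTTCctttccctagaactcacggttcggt
Oas3 (chr5:120777700-120777759, minus strand): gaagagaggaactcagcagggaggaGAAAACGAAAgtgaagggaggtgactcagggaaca
Oas1a (chr5:120907526-120907570, minus strand): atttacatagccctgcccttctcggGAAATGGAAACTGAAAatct
Ifit3 (chr19:34583348-34583441, plus strand): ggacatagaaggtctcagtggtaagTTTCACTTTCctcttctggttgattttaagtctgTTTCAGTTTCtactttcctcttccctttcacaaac
Isg15 (chr4:156200850-156200921, minus strand): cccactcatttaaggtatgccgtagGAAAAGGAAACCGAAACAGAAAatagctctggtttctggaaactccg
Trim30a (chr7:104465195-104465254, minus strand): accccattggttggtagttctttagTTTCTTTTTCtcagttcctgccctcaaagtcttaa

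The 6 stretches differ in how many elements they carry and where. Stat2, Oas3 and Trim30a hold 1 match each, Ifit3 holds 2 apart from each other, Oas1a holds 2 that overlap and Isg15 holds 3 that overlap in 1 run. In Oas1a the first match begins 20 bases before the start of transcription, in Trim30a 36, in Oas3 75, in Isg15 78, in Ifit3 156 and in Stat2 222. A match is a description of the letters, and binding was not measured here.

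Of the 36 interferon genes, 35 were lower in the stressed libraries and 1, the exonuclease gene Isg20, was higher, while 49.1% of all tested genes were lower. Their median log2 fold change, stressed over non-stressed, was -0.23, beside 0.004 over all 13334 genes. No member changed by the test over all genes: edgeR's quasi-likelihood test called 0 of 36 at an adjusted p under 0.05 (0.00750% of all tested genes were called), and the smallest adjusted p of a member was 0.684, for Oas3. DESeq2 and limma-voom also called 0 of 36. At an unadjusted p under 0.05 there were 13 members, all of them lower, where 2.95% of all tested genes had such a p and were lower. In no member did all 5 stressed libraries lie below all 5 non-stressed ones, a pattern that 0.517% of all tested genes showed. Since the members move together from library to library, as described below, the 36 directions are not 36 separate observations.

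**Figure D1:**
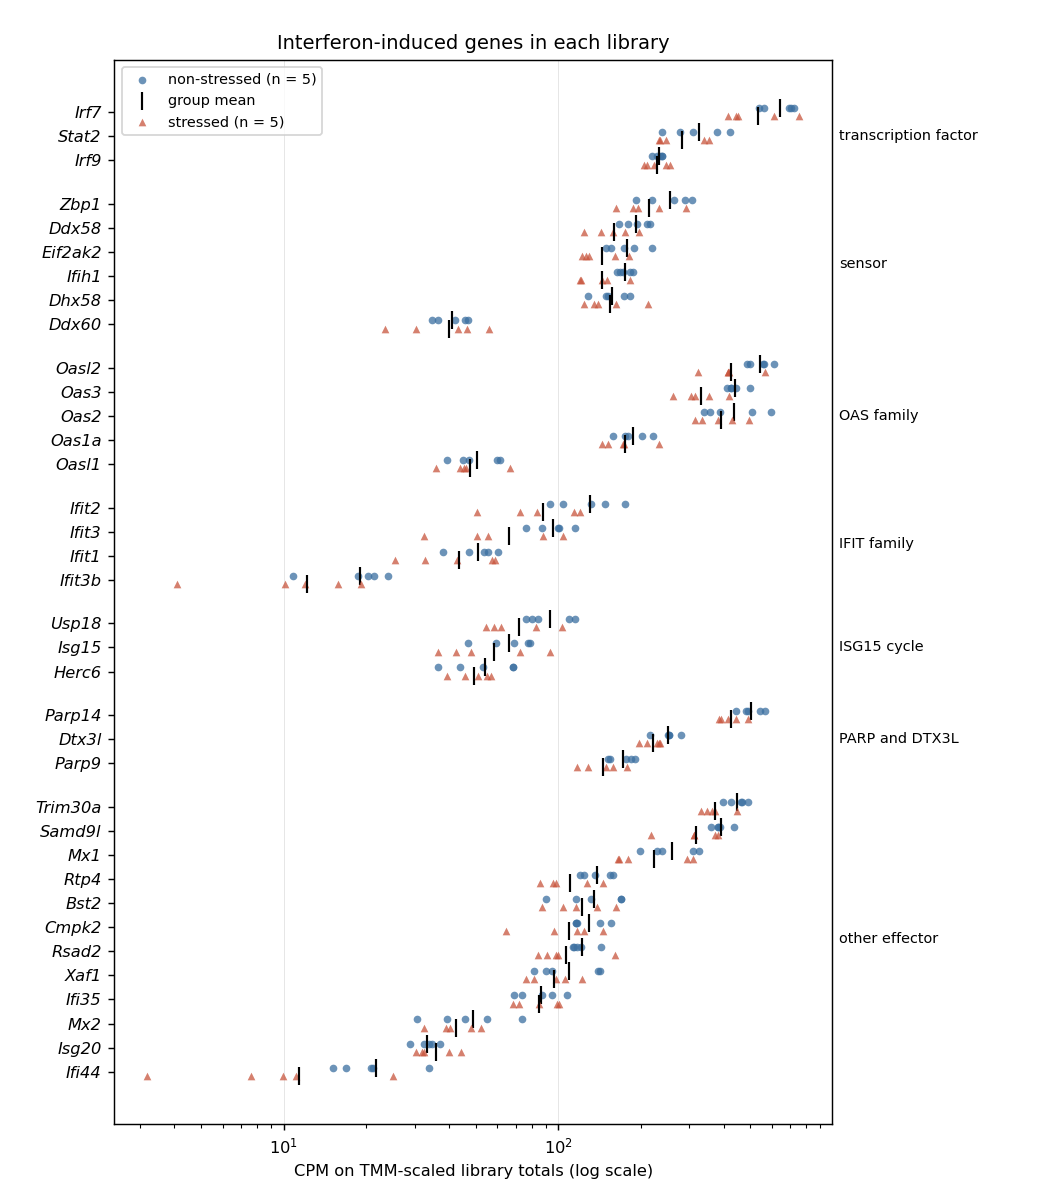
Level of each of the 36 interferon genes in each library, in CPM on a log axis, with non-stressed libraries as circles, stressed ones as triangles and the mean of each group as a bar. The groups overlap for every gene, and the stressed mean lies left of the non-stressed one for all but Isg20.

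The members lay in a narrow band of differences with a longer tail on the lower side. Of the 36, 4 had a log2 fold change below -0.5, 17 lay from -0.5 to -0.2, 14 from -0.2 to 0 and 1 above 0. The 4 lowest were Ifi44 at -0.92 (SE 0.39), Ifit3b at -0.64 (SE 0.32), Ifit2 at -0.56 (SE 0.21) and Ifit3 at -0.53 (SE 0.24). Ifi44, named here with Ifit3b after their values were seen, was also the least abundant member at 2.69 CPM per kilobase of exon. In 17 members at least 3 stressed libraries lay below all non-stressed ones, in 28 at least 2 did, and in 3 none did. The share of all tested genes with such partial patterns was not counted. These counts are therefore a description only, of genes that move together from library to library.

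**Figure D2:**
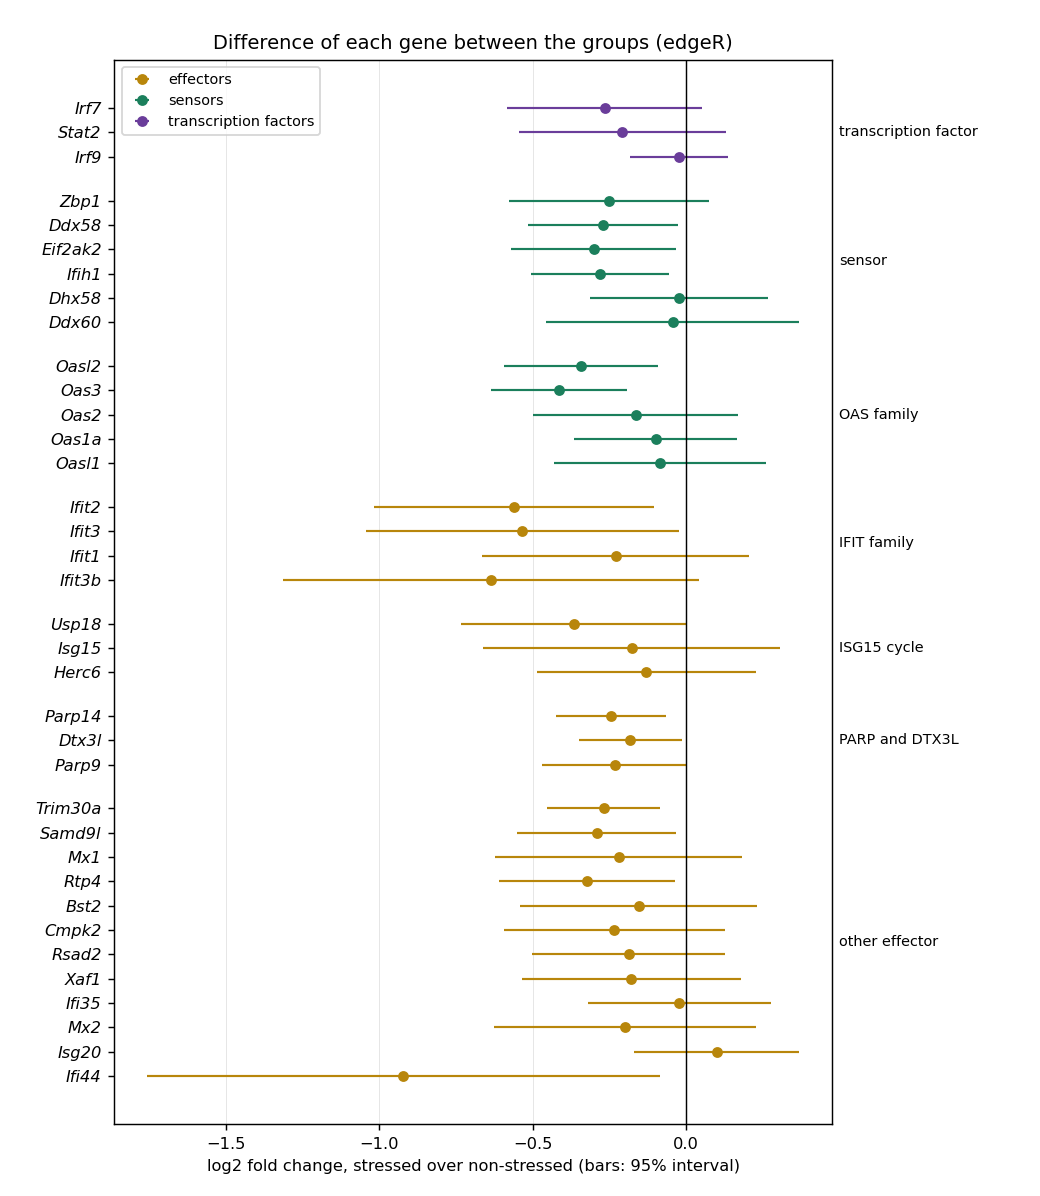
Log2 fold change of each of the 36 genes, stressed over non-stressed, with its 95% interval from the edgeR fit, grouped by role. The intervals of 13 genes lie wholly below 0, and the 4 genes below -0.5 are 3 of the 4 IFIT genes and Ifi44.

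Levels per kilobase ranged from 2.69 CPM for Ifi44 to 156 CPM for Irf7, with a median of 41.9 over the 36 genes. By class the medians were 51.2 CPM per kilobase for transcription factors, 47.6 for sensors and 31.1 for effectors. After Irf7 the highest was Bst2 at 142 CPM per kilobase, followed by Trim30a at 99.8, Oas1a at 95.9 and Oas2 at 93.0. The lowest value of any member in a library, Ifi44 at 3.18 CPM in stressed library 3, lay well above the level of 3 reads, which is 0.0785 to 0.166 CPM.

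The transcription factors had a median log2 fold change of -0.21, and all 3 were lower, 0 of them at an unadjusted p under 0.05. Stat2, the transactivating subunit of ISGF3 (ENSMUSG00000040033, chr10:128270559-128292849, plus strand, mm10), stood at 238, 309, 277, 424 and 378 CPM in non-stressed libraries 1 to 5 and at 234, 234, 246, 338 and 354 CPM in stressed libraries 1 to 5. In both groups the libraries numbered 4 and 5 were the highest, and 2 stressed libraries lay below all non-stressed ones. The log2 fold change of Stat2 was -0.21 (SE 0.16, edgeR adjusted p = 0.950).

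Irf7 encodes the factor that amplifies interferon production once it is induced itself (ENSMUSG00000025498, chr7:141262706-141266481, minus strand). It was counted at 539, 703, 563, 693 and 724 CPM in the non-stressed and at 417, 453, 443, 611 and 755 CPM in the stressed libraries. Stressed libraries 1 to 3 lay below every non-stressed library, whereas stressed library 5 was the highest of all 10. Its log2 fold change was -0.27 (SE 0.15, edgeR adjusted p = 0.928). The Irf7 gene overlaps Phrf1 on the opposite strand, and the sources used here do not give the strand setting of the counting.

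Irf9, the DNA-binding subunit of ISGF3 (ENSMUSG00000002325, chr14:55603571-55610030, plus strand), was the steadiest of the 36 genes. Its levels were 219, 228, 239, 235 and 238 CPM in the non-stressed and 205, 247, 224, 210 and 255 CPM in the stressed libraries. The highest library was 1.25 times the lowest, where that ratio reached 10.7 for Ifi44. The groups overlapped on both sides, with a log2 fold change of -0.02 (SE 0.07, edgeR adjusted p = 0.993, 95% interval -0.18 to 0.14). Irf9 overlaps Rnf31 on the same strand, so reads in the overlap are uncertain.

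Among the 6 sensors outside the OAS family all 6 were lower, 3 of them at an unadjusted p under 0.05, with a median log2 fold change of -0.26. They are the RNA helicases RIG-I (Ddx58), MDA5 (Ifih1), LGP2 (Dhx58) and Ddx60, the kinase PKR (Eif2ak2), which stops translation on double-stranded RNA, and the Z-nucleic acid sensor Zbp1. Ifih1, which senses long double-stranded RNA (ENSMUSG00000026896, chr2:62595798-62646255, minus strand), was counted at 167, 182, 164, 188 and 172 CPM in the non-stressed and at 120, 145, 121, 150 and 182 CPM in the stressed libraries. The non-stressed values lay close together, and every stressed library but library 5 lay below them. Its log2 fold change was -0.28 (SE 0.10, edgeR adjusted p = 0.874).

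Zbp1 was the sensor with the highest level per kilobase outside the OAS family, at 66.3 CPM (ENSMUSG00000027514, chr2:173206612-173218923, minus strand). Non-stressed libraries held 192, 263, 220, 308 and 288 CPM, and stressed libraries 162, 188, 195, 232 and 291 CPM. Here 2 stressed libraries lay below all non-stressed ones, and stressed library 5 lay within the upper part of the non-stressed range. The difference of -0.25 (SE 0.15, edgeR adjusted p = 0.943) was within the spread between libraries. Ddx58 had a log2 fold change of -0.27 (SE 0.11) and Eif2ak2 one of -0.30 (SE 0.13), whereas Dhx58 at -0.02 (SE 0.14) and Ddx60 at -0.04 (SE 0.19) lay near 0.

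The OAS proteins make 2′-5′-linked oligoadenylates on double-stranded RNA, which activate RNase L, and some of the OAS-like relatives lack that activity. All 5 family genes were lower, 2 of them at an unadjusted p under 0.05, with a median of -0.17. Oas3, which encodes the largest OAS protein (ENSMUSG00000032661, chr5:120753098-120777661, minus strand), stood at 425, 444, 412, 427 and 498 CPM in the non-stressed and at 315, 306, 263, 354 and 417 CPM in the stressed libraries. Of the stressed libraries 4 lay below all non-stressed ones, and stressed library 5 lay above 1 of them, non-stressed library 3.

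The mean of Oas3 was 441 ± 33.9 CPM in the non-stressed and 331 ± 58.1 CPM in the stressed libraries (each SD, n = 5), 0.750 times the non-stressed level by the fit. Its log2 fold change of -0.41 (SE 0.10, 95% interval -0.64 to -0.19) had the smallest p of the 36 members, 0.00127 unadjusted and 0.684 adjusted over all genes in edgeR. DESeq2 gave members a smallest adjusted p of 0.0888, and edgeR without a low-count filter one of 0.166. Oas3 therefore did not pass the threshold in any of these fits.

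Oas1a, the family member with the highest level per kilobase (ENSMUSG00000052776, chr5:120896256-120907521, minus strand), had 175, 179, 158, 202 and 222 CPM in the non-stressed and 173, 144, 151, 172 and 232 CPM in the stressed libraries. The groups overlapped on both sides, with stressed library 5 the highest of all and stressed library 2 the lowest. The log2 fold change was -0.10 (SE 0.12, edgeR adjusted p = 0.968). Of its 50-base stretches 57.6% also occur in transcripts of Oas1g, so the split of reads between these copies is uncertain. Oasl2 had a log2 fold change of -0.34 (SE 0.12), Oas2 one of -0.17 (SE 0.16) and Oasl1 one of -0.09 (SE 0.16).

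The IFIT proteins bind viral RNA and the translation machinery. Their 4 genes, which lie in 1 cluster on chromosome 19 together with Ifit1bl1 and Ifit1bl2, had the lowest median of the role groups, -0.55, with 2 of 4 at an unadjusted p under 0.05. Ifit2 (ENSMUSG00000045932, chr19:34550694-34576419, plus strand) was counted at 93.1, 148, 104, 175 and 131 CPM in the non-stressed and at 83.8, 72.8, 50.5, 114 and 120 CPM in the stressed libraries. Stressed libraries 1 to 3 lay below every non-stressed library, and stressed libraries 4 and 5 within their range. Its means were 130 ± 33.0 CPM and 88.3 ± 29.0 CPM (each SD, n = 5), with a log2 fold change of -0.56 (SE 0.21, edgeR adjusted p = 0.874).

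Ifit3, whose product works in complexes with other IFIT proteins (ENSMUSG00000074896, chr19:34583531-34588731, plus strand), had 76.4, 99.5, 87.0, 115 and 101 CPM in the non-stressed and 50.5, 55.3, 32.3, 88.3 and 104 CPM in the stressed libraries. Again stressed libraries 1 to 3 lay below all non-stressed ones, with stressed library 3 the lowest. The log2 fold change was -0.53 (SE 0.24, edgeR adjusted p = 0.882). Ifit3 shares 51.2% of its 50-base stretches with Ifit3b, and both values are uncertain to the extent that reads were split between them. Ifit1 had a log2 fold change of -0.23 (SE 0.20).

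ISG15 is a ubiquitin-like modifier, HERC6 attaches it in the mouse, and USP18 removes it and also holds back signalling at the interferon receptor. All 3 genes were lower and 0 had an unadjusted p under 0.05. Usp18 (ENSMUSG00000030107, chr6:121245906-121270917, plus strand) was counted at 80.3, 84.1, 76.5, 115 and 109 CPM in the non-stressed and at 54.5, 58.4, 62.0, 83.1 and 103 CPM in the stressed libraries. Stressed libraries 1 to 3 lay below all non-stressed ones, and the libraries numbered 4 and 5 were the highest in both groups. The log2 fold change was -0.37 (SE 0.17, edgeR adjusted p = 0.893).

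Isg15 itself (ENSMUSG00000035692, chr4:156199424-156200818, minus strand) spread more widely. It stood at 46.9, 79.0, 59.1, 68.9 and 77.3 CPM in the non-stressed and at 48.0, 36.4, 42.3, 72.8 and 93.2 CPM in the stressed libraries. Stressed library 5 held the highest value of all 10 and stressed library 2 the lowest, so the stressed range enclosed the non-stressed one. The log2 fold change was -0.18 (SE 0.23, edgeR adjusted p = 0.968), and that of Herc6 was -0.13 (SE 0.17).

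PARP14 and PARP9 are ADP-ribosyltransferases of the antiviral response, and DTX3L is the ubiquitin ligase that partners PARP9. Parp14 (ENSMUSG00000034422, chr16:35832874-35871544, minus strand) was measured at 489, 482, 445, 566 and 541 CPM in the non-stressed and at 386, 414, 392, 443 and 492 CPM in the stressed libraries. Of the stressed libraries 4 lay below all non-stressed ones, by small margins in stressed library 4. Means of 505 ± 48.6 CPM and 425 ± 43.6 CPM (each SD, n = 5) gave a log2 fold change of -0.25 (SE 0.08, edgeR adjusted p = 0.836).

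Parp9 had a log2 fold change of -0.23 (SE 0.11) and Dtx3l one of -0.18 (SE 0.08). These 2 genes start next to each other on opposite strands and overlap, so without a stated strand setting their reads cannot be fully told apart.

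The other 12 effectors had a median of -0.21, with 11 lower and 4 at an unadjusted p under 0.05. Trim30a, whose product restrains Toll-like receptor signalling (ENSMUSG00000030921, chr7:104409025-104465193, minus strand), was counted at 398, 463, 425, 466 and 490 CPM in the non-stressed and at 348, 372, 330, 362 and 449 CPM in the stressed libraries. Stressed libraries 1 to 4 lay below all non-stressed ones and stressed library 5 among them. The log2 fold change of Trim30a was -0.27 (SE 0.09, edgeR adjusted p = 0.829).

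Bst2 encodes tetherin, which holds budding virus particles at the cell surface (ENSMUSG00000046718, chr8:71534255-71537456, minus strand). Its levels were 89.98, 132, 116, 170 and 169 CPM in the non-stressed and 104, 87.1, 116, 139 and 162 CPM in the stressed libraries. The groups overlapped over nearly their whole ranges, with a log2 fold change of -0.16 (SE 0.18, edgeR adjusted p = 0.964). Among the remaining effectors, the restriction factor gene Samd9l had -0.29 (SE 0.12) and the receptor transporter gene Rtp4 -0.32 (SE 0.13). The GTPase genes Mx1 and Mx2 had -0.22 (SE 0.19) and -0.20 (SE 0.20), and Cmpk2 and Rsad2, neighbours that act together in making an antiviral nucleotide, -0.23 (SE 0.17) and -0.19 (SE 0.15). The apoptosis factor gene Xaf1 had -0.18 (SE 0.17), Ifi35 -0.02 (SE 0.14) and Isg20 0.10 (SE 0.13).

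Effectors, sensors and transcription factors lay close to each other in their medians, -0.23, -0.25 and -0.21. At an unadjusted p under 0.05 there were 8 of 22 effectors, 5 of 11 sensors and 0 of 3 transcription factors. In summed level the effectors went from 3358 ± 370 to 2816 ± 497 CPM, the sensors from 2656 ± 324 to 2226 ± 402 CPM and the transcription factors from 1201 ± 158 to 1045 ± 213 CPM (each SD, n = 5). In each class the groups overlapped, since stressed library 5 exceeded at least 3 of the non-stressed libraries.

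The 36 genes varied together across libraries, in both groups. As the mean over the 36 genes of log2 CPM minus the gene's own mean, the non-stressed libraries 1 to 5 stood at -0.10, 0.14, -0.01, 0.31 and 0.35, and the stressed libraries 1 to 5 at -0.24, -0.26, -0.48, 0.01 and 0.28. All 36 genes lay at or above their own mean in non-stressed library 5 and 35 did in stressed library 5, whereas 34 lay below it in stressed libraries 2 and 3. Stressed libraries 1 and 3 held the lowest level of 14 and 15 members, and non-stressed libraries 4 and 5 the highest of 14 and 10. The standard deviation between libraries of a group was 0.248 on this scale.

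**Figure D3:**
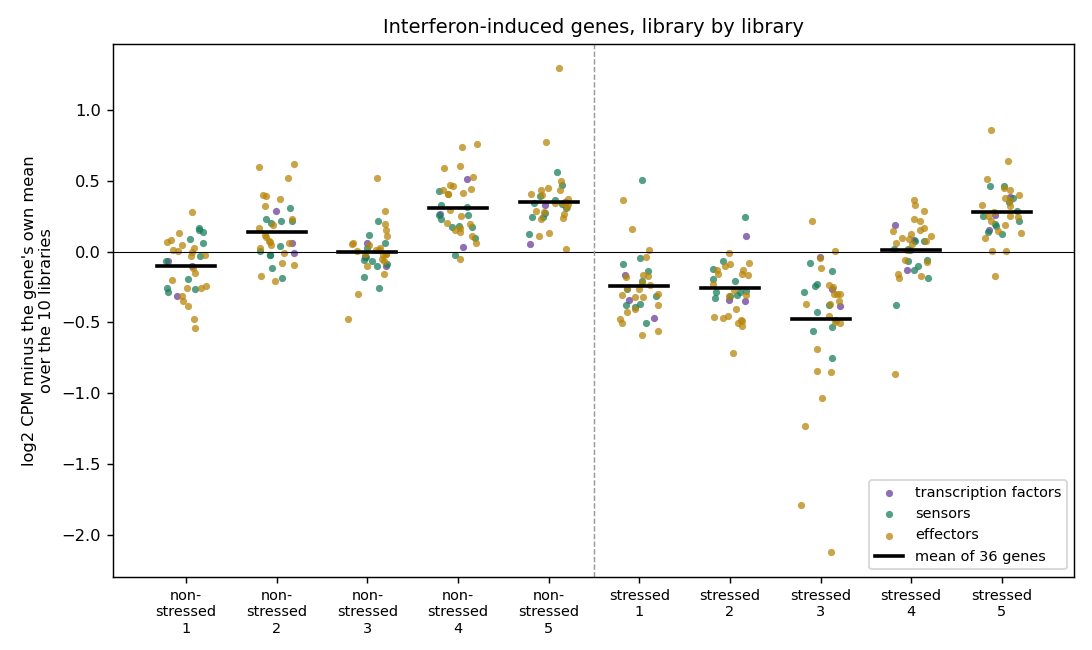
Log2 CPM of each of the 36 genes minus that gene's mean over the 10 libraries, by library; each point is 1 gene, coloured by class, and the bar is the mean of the 36. Non-stressed libraries 4 and 5 and stressed library 5 lie above 0, and stressed libraries 1 to 3 lie below it, stressed library 3 lowest at -0.48.

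The mean depth of the dip in stressed library 3 differed by class, but the effectors also differed widely among themselves. Relative to their own means the effectors stood at -0.56 there, the sensors at -0.37 and the 3 transcription factors at -0.23. The deepest effectors were Ifi44 at -2.12, Ifit3b at -1.79, Ifit3 at -1.23 and Ifit2 at -1.03. Isg20 at 0.22 and Ifi35 at 0.007 lay above their own means. The effector mean thus leans on Ifi44 and the IFIT genes and does not describe every effector. Stressed library 3 also had the fewest counts, 18020220, and the largest level of 3 reads, 0.166 CPM.

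In both groups the libraries numbered 4 and 5 stood above those numbered 1 to 3, a split noticed in the data that the labels do not explain. Among libraries 1 to 3 the mean deviation of the 36 genes was -0.10 to 0.14 in non-stressed and -0.48 to -0.24 in stressed libraries, which did not overlap. Among libraries 4 and 5 it was 0.31 to 0.35 and 0.01 to 0.28, which did not overlap either. Each side of the split held only 3 or 2 libraries of a group, and so few can fall in such an order by chance. How many of all tested genes show that order was not counted. These values are a description without a test, since the split was chosen after seeing them.

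Other transcripts moved with the same split. Vwf stood at 36.8 to 44.7 CPM in libraries 1 to 3 of both groups and at 15.9 to 20.6 CPM in libraries 4 and 5, and Lyz2, the lysozyme gene of myeloid cells, at 15600 to 23483 and 23397 to 26714 CPM. Ly6c2, a surface antigen of classical monocytes, was likewise highest in libraries 4 and 5 of both groups, at 659.8, 852, 904, 1155 and 1269 CPM in the non-stressed and 649, 617, 640.5, 902 and 1158 CPM in the stressed libraries. Its log2 fold change was -0.29 (SE 0.19). These genes were named after their values were seen, and their part in the result was not tested. The first principal component of 2000 variable genes outside the members and their pathway (33.2% of the variance) also set libraries 1 and 2 of both groups apart from libraries 4 and 5 of both, with non-stressed library 3 on the side of the former and stressed library 3 on that of the latter. With that component as a covariate in edgeR, a fit chosen after the data were seen, the members' median was -0.25 and 0 of 36 were called, with 20 lower at an unadjusted p under 0.05. Over all tested genes 546 were lower at such a p in that fit, against 393 without the covariate.

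Libraries in which Ddx3y, a Y-linked gene, had over 100 reads (numbers 2 to 4 of each group) and those without (numbers 1 and 5) were also fitted apart. Xist, a transcript of female cells, had 0 reads in the first and 9241 to 18977 reads in the second. By these transcripts the classes read as male and female, though the labels give no sex. The members' median was -0.34 in the first, with 34 lower and 17 at an unadjusted p under 0.05, and -0.10 in the second, with 25 lower and 0 at such a p. Over all tested genes, 401 of 13770 in the first and 168 of 13683 in the second were lower at such a p. The difference between these classes was tested as an interaction over all genes in edgeR. It called 0 genes and 0 members, 0 members had an unadjusted p under 0.05 for it, and 574 genes (4.30%) did. With 2 libraries of each group in the second class, this test can miss a difference between the classes. Whether the members' difference depends on the class is therefore not settled by it.

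Which libraries were in the fit changed the size of the median difference and not its sign. With each library left out in turn, the members' median ran from -0.36 to -0.17 and 32 to 35 members were lower. Without stressed library 5 the median was -0.36, that of the effectors also -0.36, and 21 members were lower at an unadjusted p under 0.05. Without non-stressed library 4 the median was -0.17, and that of the transcription factors -0.10. The 13 members at an unadjusted p under 0.05 became 5 without stressed library 3, 7 without non-stressed library 5, and 8 without stressed library 1 or stressed library 2. Over all tested genes the lower ones at such a p numbered 393 with all libraries and 310 to 528 with a library left out.

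**Figure D4:**
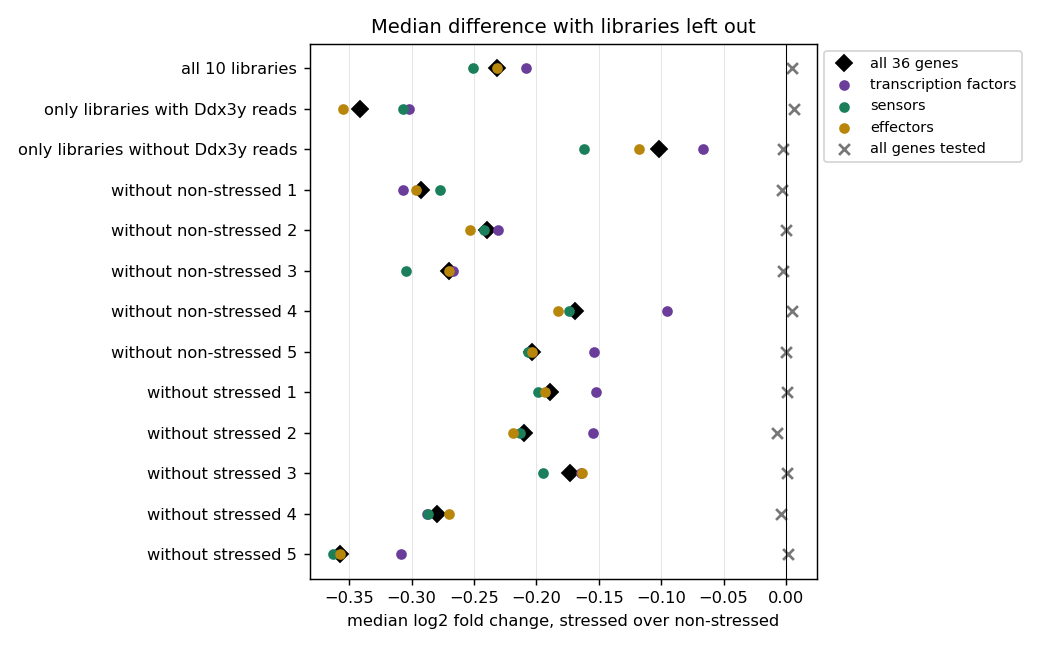
Median log2 fold change of the 36 genes and of each class, with all libraries, within each Ddx3y class and with each library left out; crosses are the medians over all genes tested. The medians of the 36 genes lie between -0.36 and -0.10, and those of all genes within 0.01 of 0.

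The other genes of the pathway were taken from a list of 111 genes outside the members. Of 18 ligand genes 0 passed the filter and 15 had 0 reads in every library, among them Ifnb1, the gene of interferon beta. The others were Ifnk with 91 reads, Ifng, the type II interferon, with 57 and Ifnab with 9, or 157 reads in all. No listed interferon gene exceeded 1.56 CPM in any library, the level of Ifnk in non-stressed library 5.

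Receptor and kinase genes showed small differences. Of 7, 4 were lower, 0 were called and the median was -0.06. Ifnar1 had a log2 fold change of -0.08 (SE 0.08), Ifnar2 -0.08 (SE 0.07), Jak1 -0.06 (SE 0.09) and Tyk2 0.07 (SE 0.07). Jak2, which serves the type II interferon receptor, had -0.19 (SE 0.09), the 1 gene of these with an unadjusted p under 0.05. Ifngr1, a chain of the type II receptor, was the highest per kilobase at 279 CPM.

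Of 8 other transcription factor genes 5 were lower, 0 were called and the median was -0.03. Irf5, a factor of myeloid cells, was the highest per kilobase of these at 234 CPM, with -0.02 (SE 0.07).

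Upstream of the interferons, 9 of 15 sensor and adaptor genes were lower, with a median of -0.04 and 0 called. Tlr9, the endosomal receptor of unmethylated DNA, had -0.49 (SE 0.15, edgeR adjusted p = 0.788) and Ticam1, the adaptor of TLR3, -0.32 (SE 0.11), whereas the kinase gene Ikbke had 0.28 (SE 0.13). Of 9 inhibitor genes Trex1 had 0 reads, 5 of the 8 tested were lower, 0 were called and the median was -0.07. Overlap with other genes was not examined for Trex1. Whether its transcript was absent or its reads went uncounted was therefore not tested. Socs1 and Socs3, which block JAK kinases, lay on opposite sides at -0.47 (SE 0.26) and 0.45 (SE 0.31).

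A further 54 interferon-induced genes that were not among the 36 were listed with earlier results of these data known. They were counted in the same 10 libraries, and some share sequence with members, as Oas1g does with Oas1a. Their direction is therefore a description and not a second test. Of the 51 that passed the filter 47 were lower, where 49.1% of all tested genes were. At an unadjusted p under 0.05 there were 9 lower and 0 higher ones, where 2.95% of all tested genes had such a p and were lower. Their median was -0.16, and 0 were called. The smallest p were those of Lgals3bp, a secreted glycoprotein gene, at -0.33 (SE 0.09, edgeR adjusted p = 0.705), the RNA helicase gene Mov10 at -0.51 (SE 0.16), the RNA sensor gene Znfx1 at -0.34 (SE 0.12) and Ifit1bl1 at -0.58 (SE 0.21). The most abundant per kilobase, Ifitm3, which blocks viral entry, stood at 2235 CPM with a log2 fold change of -0.07 (SE 0.08).

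**Figure D5:**
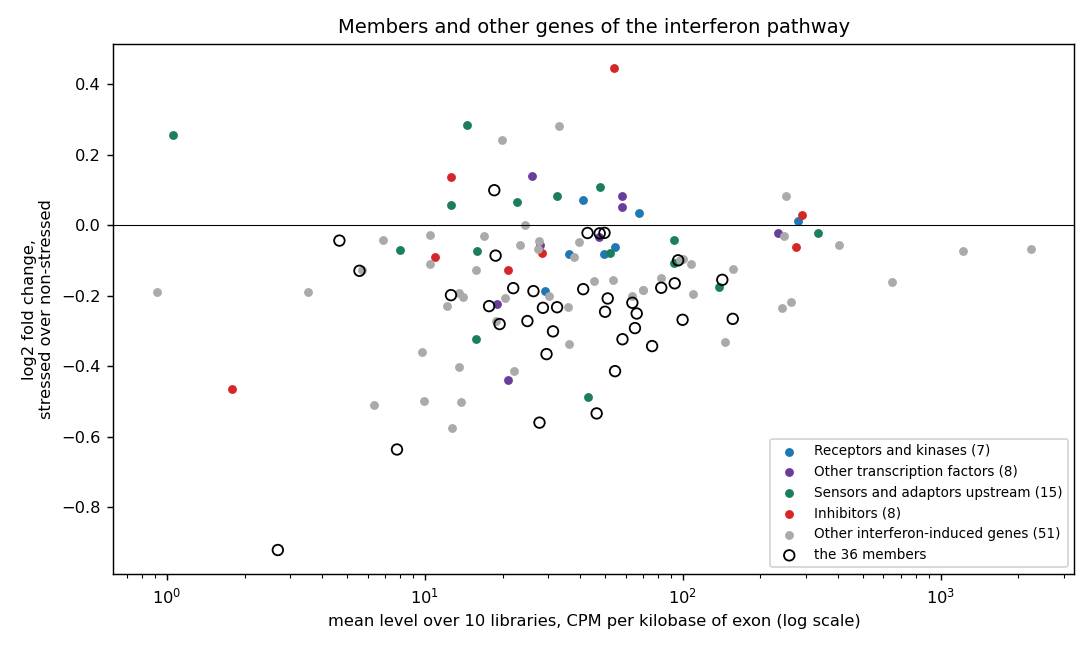
Log2 fold change, stressed over non-stressed, against the mean level per kilobase of exon (log axis) for the 36 members (open circles) and the other tested genes of the pathway (filled, by part). Members and the other interferon-induced genes lie mostly below 0, receptors, kinases and most other transcription factors close to it.

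Markers of plasmacytoid dendritic cells were read beside these values. Their summed level was 217 to 275 CPM in non-stressed and 199 to 235 CPM in stressed libraries (exact permutation test, two-sided, p = 0.0714, adjusted p = 0.524 over 11 library measures), and 7 of 8 tested markers were lower, 0 of them called. The defining markers Siglech and Ccr9 were low, with 494 and 492 reads over all libraries. Tcf4, the largest part of the sum, was not lower, with means of 119 CPM in non-stressed and 123 CPM in stressed libraries. For total counts the exact permutation test gave p = 0.0952 (adjusted p = 0.524). For erythroid markers, of which all 7 were higher and 0 called, the exact permutation test gave p = 0.143 (adjusted p = 0.524). A shared direction was seen in other lists too. All 6 B cell markers were lower and all 6 platelet markers higher, with 0 called in either list. The part of these in the interferon genes' values was not tested.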

How the data were processed

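RNA-seq read counts of 10 libraries were analysed. Per the submitters' processing notes the authors used Trimmomatic, STAR, featureCounts and build mm10; the sources used here give no versions, annotation or strand setting. The deposited table holds raw counts per Ensembl gene, not normalized. A PicoPure kit served for RNA and a TruSeq Stranded kit for libraries, per the labels' protocols. Of 48526 identifiers 48144 matched a GENCODE M21 symbol; coordinates and exon lengths come from there.

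Groups and replicate numbers came from the sample titles. The test was edgeR 4.0.16 (R 4.3.3) with filterByExpr (minimum count 10), TMM factors, intercept and group, quasi-likelihood F test, Benjamini-Hochberg adjustment over 13334 genes at 0.05. These genes held 99.9% of counts. The script was tested on simulated data. Standard errors are log2 fold changes over the root of F, and CPM use TMM-scaled totals. A count of 3 reads is 0.0785 to 0.166 CPM per library and covers counting error only. An exact permutation test (252 assignments, scipy 1.17.1) served for library measures.

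The members and all lists were chosen with earlier results of these data known. Values in every library are given for the 3 transcription factors and, in each other role group, the member with the smallest p and the one with the highest level per kilobase; of other pathway genes, those with the smallest p or highest level are named, with core pathway genes added. Of these, 1 gene that this rule takes is not reported here. Alternatives were RLE factors, DESeq2 1.42.0, limma-voom 3.58.1 with quality weights, no filter, a replicate block, Ddx3y as a covariate or within its classes, and leaving out each library; plain totals, the interaction and the principal component were added after the data were seen.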

Additional observations from a re-analysis of the deposited data

Results flagged for a closer look

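Rsad2, which encodes viperin, an enzyme that makes an antiviral nucleotide, had 1 library set apart above the others in each group. Among non-stressed libraries, library 5 stood at 142.5 CPM and the other 4 at 113 to 121 CPM. Among stressed libraries, library 5 stood at 160 CPM and the other 4 at 84.7 to 99.4 CPM. The gap to the nearest library was 0.712 and 0.806 of the group's range, above the critical value of 0.71 for 5 values. Of 72 groups of 5 examined in this way, 1 in 20 passes by chance, and only those of Rsad2 passed, a smaller share. Library 5 was also high for the members in general. In non-stressed library 5, 0 of the 36 genes lay below their own mean, and in stressed library 5 only 1 did.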

How the results depend on the processing

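Under the 20 alternatives 0 of 36 members were called, and 25 members kept their direction in every one. The median of the 36 genes, of the sensors, of the effectors and of the transcription factors stayed below 0. Genes called over the whole table numbered 1, but 19 with DESeq2, 2 with limma-voom, 4 with the replicate block, 10 with no filter, 9 with the principal component, 0 in the libraries without Ddx3y and 1 to 2 with a library left out. Members lower at an unadjusted p under 0.05 numbered 13, but 22 with the replicate block, 20 with the principal component, 0 in the libraries without Ddx3y and 5 to 21 with a library left out. Over all tested genes the same count was 393, but 535, 546, 168 and 310 to 528 in the same order, so it moved there too. With the block the members' median was -0.25. The same-numbered libraries of the 2 groups deviated from their group means with correlations of 0.36, 0.08, -0.19, 0.38 and 0.41 over 5000 genes. The median correlations with the other numbers were -0.23, -0.05, 0.03, -0.10 and -0.13. Only those numbered 4 and 5 matched their own number best. Whether the numbers pair the libraries is not known, since the labels do not say so, and the test without the block was kept as the main one. Same-numbered libraries were alike in having Ddx3y reads or not. The mean deviation of the 36 genes was lower in the stressed library at each of the 5 numbers. That comparison takes the numbers as pairs, and it was not made over all genes, so it is a description only. In 11 members the log2 fold change turned positive in at least 1 alternative. In the libraries without Ddx3y, 2 a group, these were Irf9 (0.0116), Dhx58 (0.12), Ddx60 (0.28), Oas1a (0.0334), Oasl1 (0.15), Isg15 (0.19), Mx2 (0.0956), Rsad2 (0.0194), Cmpk2 (0.0258) and Bst2 (0.03995). Ifi35 was 0.0468 with limma-voom and 0.0299 in the libraries with Ddx3y. With a library left out, Irf9 ran from -0.0695 to 0.0109, Dhx58 from -0.17 to 0.0429, Ddx60 from -0.199 to 0.0958 and Ifi35 from -0.101 to 0.0624. Allowing 1 mismatch, the interferon-stimulated response element lay in 92.6% of the members' promoters and 38.9% of all genes' promoters. The cause of these shifts was not tested.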
